A study of Caenorhabditis elegans with 10 samples.

Results

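The R9Q_unc-16 strain of Caenorhabditis elegans carried the R9Q change in unc-104 together with a mutation in unc-16, and its whole-animal transcripts were compared here with those of wild type (WT). Libraries were chosen by their titles, which gave R9Q_unc-16 replicates 1 and 2 and WT replicates 1 and 2, 4 of the 10 RNA-seq libraries of the series. The series held 5 strains with 2 libraries each: WT, unc-104(R9Q), R9Q_T102I and R9Q_G265R with a second change in unc-104 itself, and unc-104(R9Q);unc-16. All animals were labelled as untreated, and the labels gave neither a stage nor the unc-16 allele. WT carried neither mutation, so the comparison joins the R9Q change and the unc-16 mutation. The unc-104(R9Q) strain (R9Q below) is the one labelled with the R9Q change alone. R9Q_T102I and R9Q_G265R also hold R9Q without the unc-16 mutation, but with a second change in unc-104. Nothing in the labels said whether the replicates came from separate cultures, so the spread behind each p-value is that between samples and may be technical.

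UNC-104 is the kinesin-3 motor that carries synaptic vesicle precursors from the neuronal cell body into the axon, and its human counterpart is KIF1A, which is mutated in inherited neurological disease. UNC-16 is the worm counterpart of the scaffold protein JIP3. It binds kinesin-1 and kinases of the JNK pathway and is known in the worm as a regulator of vesicle and organelle transport in axons. Loss of a transport factor in neurons can be read in whole animals only through the summed RNA of all tissues, and fewer cells of a type cannot be told apart from less RNA per cell.

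The mutated genes themselves were barely measured. The 4 transcripts of unc-104, which lies on chromosome II from 6994987 to 7010625 of ce11 (WBGene00006831), held 0 counts in all 10 libraries. A read that fell on more than 1 transcript was left uncounted by the authors. On unc-16 (WBGene00006755, chromosome III, 9546258 to 9557450) the counts fell on 2 of its 20 transcripts. The transcript with most of them had 25 and 41 counts in WT replicates 1 and 2 and 39 and 11 in R9Q_unc-16. The groups overlapped, and the log2 fold change of the gene was -0.46 (SE 1.06, adjusted p = 0.84 by edgeR). These counts therefore check neither the R9Q nor the unc-16 label.

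The 2 R9Q_unc-16 libraries differed from each other far more than the 2 WT libraries did. Assigned counts were 6516698 and 6340053 in WT and 6847045 and 7069246 in R9Q_unc-16. Of 12267 genes tested, 649 differed by more than 2-fold between the WT libraries, 493 between the R9Q libraries and 4666 between the R9Q_unc-16 libraries. The mitochondrial genome held 4.75 and 4.87% of assigned counts in WT, 1.58% in R9Q_unc-16 replicate 1 and 0.0194% in replicate 2. A share as low was found in 1 library each of R9Q_T102I (0.0238 and 4.95%) and R9Q_G265R (5.51 and 0.01997%). R9Q_unc-16 replicate 2 also had the fewest genes with a count of the 4 libraries compared, 16450 against 17785 to 18331. It stood apart in collagen and molting genes as well, as described below. What part these features had in the other results was not tested. Below, paired values are replicates 1 and 2 in that order, a level is in CPM (counts scaled to a common library size by TMM factors) unless named otherwise, and CPM is not corrected for gene length.

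In R9Q_unc-16, the genes called higher than WT included members of the intracellular infection response, Hsp70 chaperones, proteasome subunits, pharyngeal cuticle proteins and a pair of C-type lectins. Those called lower included glutathione transferases, enzymes of fatty acid oxidation and a target of the KGB-1 kinase. edgeR's quasi-likelihood test over all 10 libraries called 547 of 12267 genes at a Benjamini-Hochberg adjusted p under 0.05, which is 4.46% of the genes tested. Of these, 278 (2.27%) were higher and 269 (2.19%) lower, and 523 were protein-coding. At least a 2-fold change was fitted for 515 of them. A change of 8-fold or more was fitted for 99 of those higher and 39 of those lower. For each of the 547, both R9Q_unc-16 libraries lay on the same side of both WT libraries. Non-overlap by itself was common, at 56.1% of all genes tested, with 24.2% above and 31.9% below. The comparison of R9Q with WT, which shares the WT libraries, called 38 genes (0.31%), and R9Q_unc-16 against R9Q called 82 (0.668%).

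The number of calls changed with the libraries that entered the fit. The median biological coefficient of variation was 0.363 over the 10 libraries, 0.0802 in WT and R9Q and 0.62 in R9Q_unc-16 alone. With only the 4 libraries of the comparison, edgeR called 0 genes (2248 at an unadjusted p under 0.05, against 2847 over the 10 libraries), while DESeq2 called 855, of which 399 were among the 547. Without WT replicate 1 edgeR called 7 genes and without WT replicate 2 it called 9. Without R9Q_unc-16 replicate 1 it called 849, and without replicate 2 it called 1448; 361 of the 547 were called in both of these fits. Leaving out either R9Q library gave 82 calls, leaving out R9Q_T102I replicate 1 or 2 gave 193 or 212, and leaving out R9Q_G265R replicate 1 or 2 gave 925 or 888. With DESeq2 size factors the split was 358 higher and 224 lower, and without mitochondrial and ribosomal RNA genes it was 366 and 222. The direction of each of the 547 was the same in all of these fits that tested it. These fits reuse libraries that already lay on one side of WT for each gene, so the direction could hardly have changed. An exact two-sided permutation test of 2 against 2 libraries cannot give a p below 0.333.

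**Figure D1:**
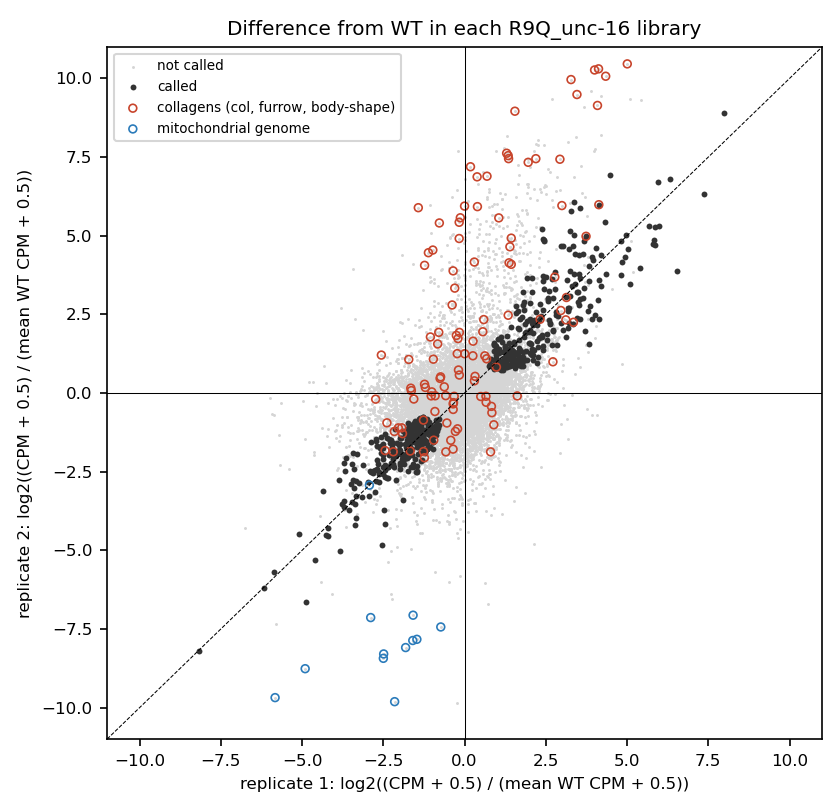
Each point is 1 of 12267 genes, with its difference from the WT mean in R9Q_unc-16 replicate 1 on the x axis and in replicate 2 on the y axis, as log2 ratios of CPM with 0.5 added. The 547 called genes (dark) lie near the diagonal, with a median signed difference of 0.88 in replicate 1 and 0.78 in replicate 2 over those higher and lower together, while collagens (red) reach far higher and mitochondrial genes (blue) far lower in replicate 2.

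Among the widest gaps upward were those of the lectin genes clec-60 and clec-61, neighbours on chromosome II whose products carry C-type lectin domains and which are known to respond to bacterial infection of the intestine. clec-60 (WBGene00014046, 10480043 to 10481874) stood at 1.67 and 1.55 CPM in WT, 38.8 and 30.9 in R9Q, and 539 and 1003 in R9Q_unc-16. The 3 strains did not overlap, and the log2 fold change was 8.88 over WT (SE 0.70, adjusted p = 0.00243) and 4.47 over R9Q (adjusted p = 0.0297). clec-61 (WBGene00014047, 10488730 to 10490537) stood at 0.912 and 0.621 CPM in WT, 8.37 and 8.38 in R9Q, and 101 and 141.9 in R9Q_unc-16. It showed the same order without overlap, with a log2 fold change of 7.27 over WT (SE 0.45, adjusted p = 0.00168) and 3.86 over R9Q (adjusted p = 0.0144). For clec-60, R9Q_T102I stood at 54.9 and 58.3 CPM and R9Q_G265R at 223 and 647, which overlapped R9Q_unc-16.

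A second strong rise was at tbb-6 (WBGene00006539, chromosome V, 12261531 to 12263368), a beta-tubulin gene known to be induced by mitochondrial stress. It stood at 7.30 and 5.13 CPM in WT, 34.9 and 38.9 in R9Q, and 392 and 261 in R9Q_unc-16. The log2 fold change was 5.71 over WT (SE 0.45, adjusted p = 0.00243) and 3.14 over R9Q (adjusted p = 0.0308), again with no overlap among the 3 strains. Its neighbours T04H1.5, ssp-35 and F55C5.2, within 12251341 to 12265492, were also called higher. ssp-35, of a sperm-specific protein family, had 1 and 0 counts in WT and 120 and 100 in R9Q_unc-16, a 205-fold ratio (95% counting interval 36.4 to 8126). Of the 12 tubulin genes tested tbb-6 was the 1 called (8.33%, against 4.46% of all genes), and the median log2 fold change of the list was 0.09.

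**Figure D2:**
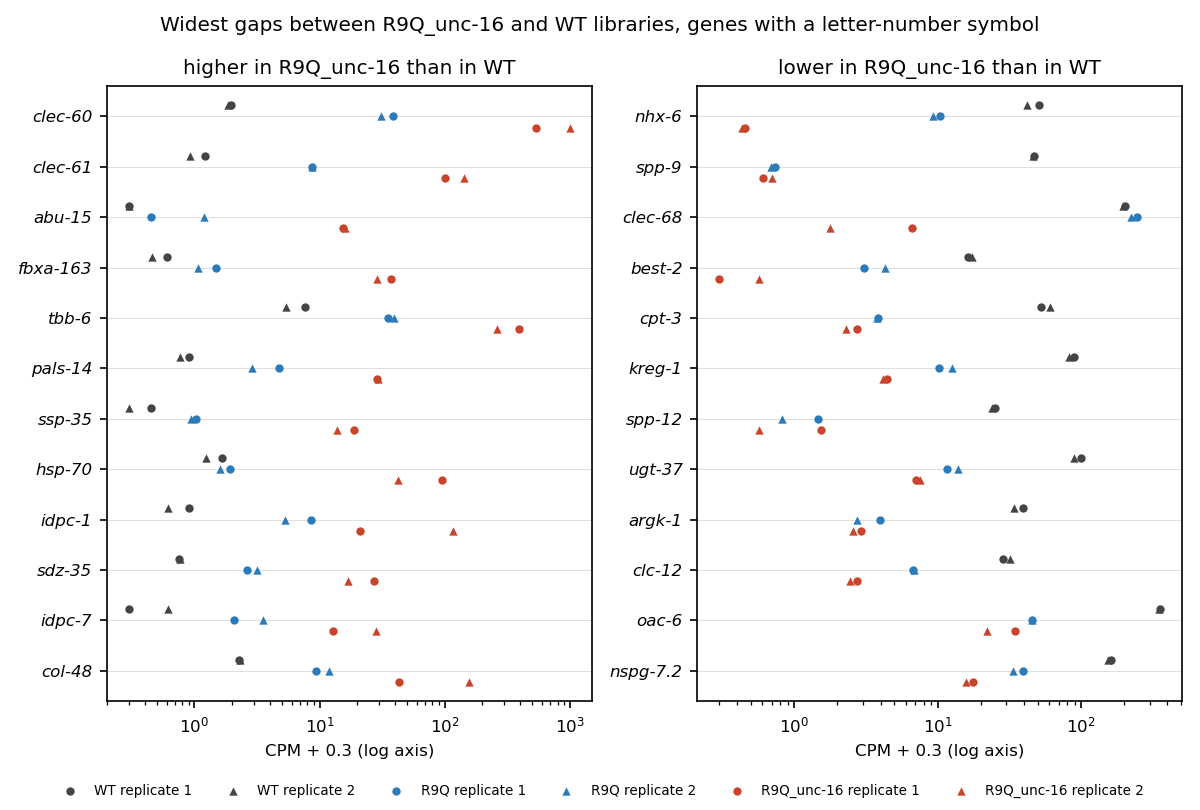
Levels in CPM, with 0.3 added on a log axis, of the 12 called genes in each direction with the widest gap between R9Q_unc-16 and WT libraries, among genes with a symbol of letters and a number and a mean of at least 50 counts; genes known by a sequence name only, such as F44E5.4 and F56A4.3, are not drawn. Black marks are WT, blue marks R9Q and red marks R9Q_unc-16 (circles replicate 1, triangles replicate 2). clec-60 reaches 539 and 1003 CPM in R9Q_unc-16 against 1.67 and 1.55 in WT, and spp-9 falls from 46.98 and 45.98 to 0.307 and 0.402.

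Genes of the pals family, whose members are switched on by microsporidia and virus in the intestine in the intracellular pathogen response, lay mostly above WT. Of 38 pals genes 26 were tested, and 6 were called higher and 0 lower (23.1%, against 4.46% of all genes). Both R9Q_unc-16 libraries lay above both WT libraries for 20 of the 26 and below for 0. Their median log2 fold change was 1.70, against -0.07 over all genes, and 0.62 in R9Q against WT. pals-14 (chromosome I, 13139122 to 13141898) stood at 0.608 and 0.466 CPM in WT, 4.40 and 2.58 in R9Q, and 28.7 and 29.1 in R9Q_unc-16. The log2 fold change over WT was 5.70 (SE 0.48, adjusted p = 0.00267) and over R9Q 3.05 (adjusted p = 0.0331), with no overlap of the 3 strains.

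Beside it on chromosome I, from 13130813, lie pals-5, whose promoter is the usual reporter of this response, and pals-6. pals-5 had 0 counts in both WT libraries and 29 and 36 in R9Q_unc-16, so it was at least 10.1-fold higher against a floor of 3 counts per WT library. pals-6 stood at 0.76 and 2.49 CPM in WT, 9.10 and 8.25 in R9Q, and 31.5 and 42.5 in R9Q_unc-16 (log2 fold change 4.50, SE 0.54, adjusted p = 0.00898). The remaining called members were pals-26, pals-27 and pals-32, with log2 fold changes of 2.27, 3.87 and 2.08. pals-22 and pals-25, which are known as the repressor and the activator of the response, lay at 28.6 and 30.1 CPM against 19.8 and 31.6, and at 22.8 and 21.6 against 21.3 and 23.97. Both of these genes overlapped between the groups. Without R9Q_unc-16 replicate 1 edgeR called 6 members, without replicate 2 it called 7, and without WT replicate 1 or 2 it called 0 or 1. The members resemble each other in sequence, so reads can have been lost or misplaced between them.

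**Figure D3:**
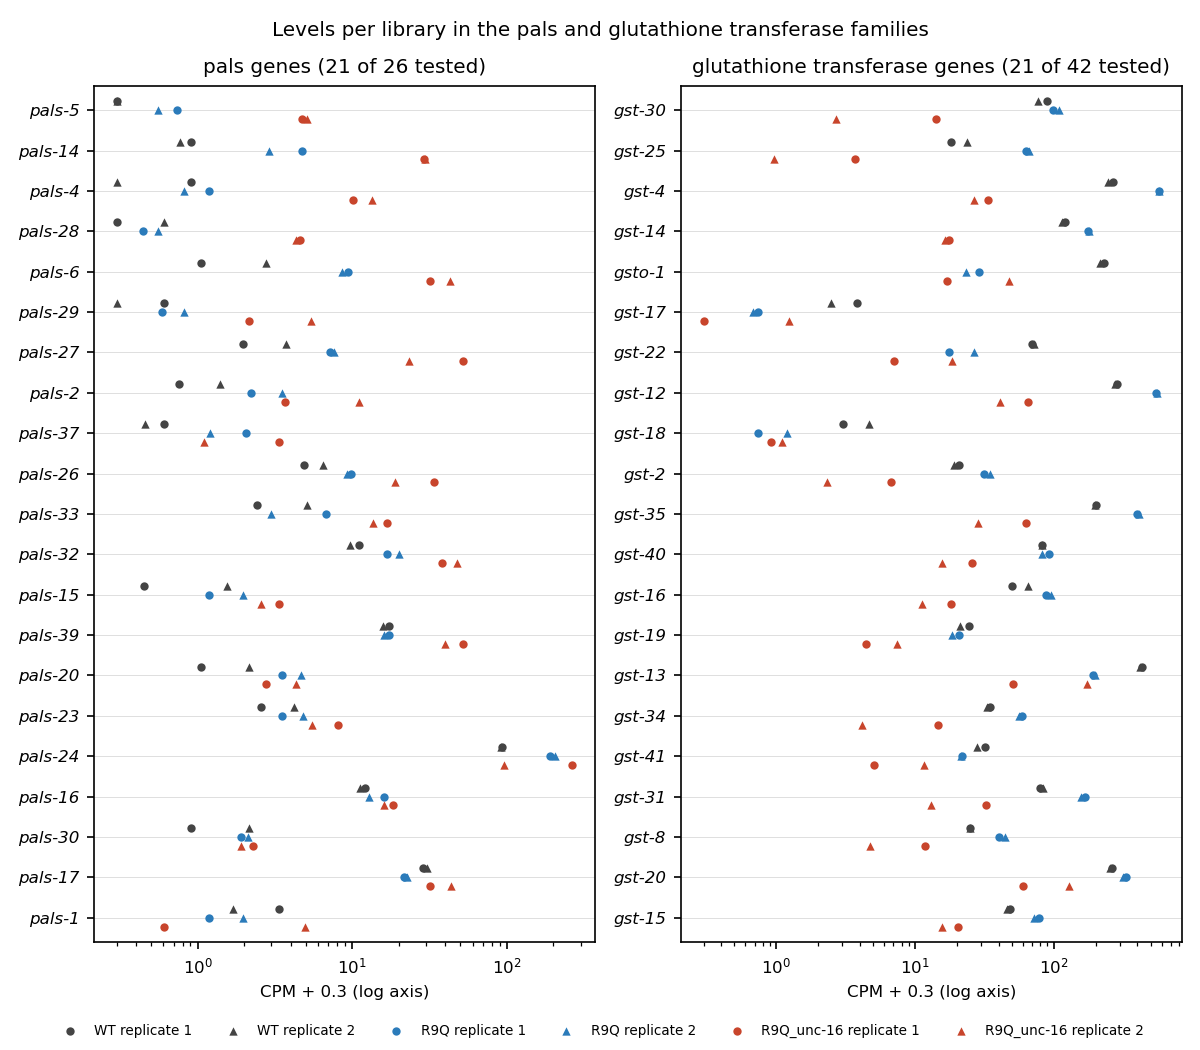
Levels in CPM, with 0.3 added on a log axis, of the 21 pals genes with the highest fold change and the 21 glutathione transferase genes with the lowest, for WT (black), R9Q (blue) and R9Q_unc-16 (red), with circles for replicate 1 and triangles for replicate 2. pals-14 lies at 28.7 and 29.1 CPM in R9Q_unc-16 and below 5 in WT and R9Q, and gst-4 lies at 33.3 and 26.1 in R9Q_unc-16, below WT at 268 and 247 and R9Q at 574 and 572.

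F-box genes of the fbxa family, which code for candidate substrate adaptors of ubiquitin ligases, did not move as a family. Of 114 tested 4 were called higher and 1 lower, 4.39% against 4.46% of all genes, and their median log2 fold change was 0.01. Of those higher, 3 lie side by side on chromosome II with C08E3.5, between 1607869 and 1616482. fbxa-163 had 2 and 1 counts in WT and 241 and 213 in R9Q_unc-16, a 141-fold ratio (95% counting interval 47.9 to 686). Its level was 37.01 and 28.5 CPM in R9Q_unc-16 and 1.17 and 0.773 in R9Q, a log2 difference of 5.05 between these strains (adjusted p = 0.0248). fbxa-164, next to it, was at 21.3 and 14.7 CPM in R9Q_unc-16 and 11.01 and 14.8 in R9Q, which overlapped, against 2.13 and 1.55 in WT. The neighbouring gene C08E3.5 likewise stood at 18.9 and 24.5 CPM in R9Q_unc-16, 18.8 and 22.7 in R9Q and 4.26 and 3.11 in WT. fbxa-165, the third of the run, stood at 0.304 and 0 CPM in WT, 1.47 and 3.09 in R9Q and 6.45 and 6.70 in R9Q_unc-16 (adjusted p = 0.0234 against WT and 0.267 against R9Q). Its R9Q levels lay between those of the other strains.

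Other genes of host defence went in both directions. Among 112 C-type lectin genes tested, 4 were called higher (clec-60, clec-61, clec-78 and clec-160) and 6 lower, and the median log2 fold change was 0.16. The calls were 8.93% of the list, against 4.46% of all genes. clec-68 (chromosome IV, 3926417 to 3929105) was the leading one downward, at 201 and 196 CPM in WT, 245 and 222 in R9Q and 6.30 and 1.47 in R9Q_unc-16. Its log2 fold change was -5.68 against WT (SE 0.68, adjusted p = 0.00898) and -5.92 against R9Q (adjusted p = 0.0249), and R9Q lay above WT. clec-70 lies close by on the same chromosome and stood at 49.3 and 45.5 CPM in WT, 12.4 and 4.02 in R9Q_unc-16 and 1.32 and 1.68 in R9Q, so that here R9Q was the lowest strain.

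Saposin-like proteins, some of which act as antimicrobial or lipid-binding peptides of the intestine, had 18 genes tested, with spp-8 higher and spp-9 and spp-12 lower. These calls were 16.7% of the list, against 4.46% of all genes. spp-9 (WBGene00004994, chromosome X, 11487784 to 11488203) stood at 46.98 and 45.98 CPM in WT, 0.44 and 0.387 in R9Q and 0.307 and 0.402 in R9Q_unc-16. The log2 fold change was -6.95 against WT (SE 0.53, adjusted p = 0.00243), and R9Q and R9Q_unc-16 lay at or under the floor of 3 counts. R9Q_T102I, however, stood at 129 and 60.99 CPM, above WT, and R9Q_G265R at 4.16 and 2.69. spp-12 was likewise low in R9Q and R9Q_unc-16, at 24.8 and 23.6 CPM in WT, 1.17 and 0.516 in R9Q and 1.23 and 0.268 in R9Q_unc-16. For spp-12, R9Q_T102I stood at 32.4 and 22.9 CPM and R9Q_G265R at 2.88 and 0.503. spp-8 stood at 517 and 491 CPM in WT, 942 and 938 in R9Q and 1661 and 1298 in R9Q_unc-16 (log2 fold change 1.55, SE 0.23, adjusted p = 0.0183).

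Of 11 lysozyme genes tested, ilys-3 was called higher, at 13.1 and 71.1 CPM against 1.67 and 2.33 in WT, and lys-3 lower, at 43.8 and 23.8 against 131 and 113. These calls were 18.2% of the list, against 4.46% of all genes. The infection response gene irg-2 stood at 11.3 and 9.63 CPM in WT, 22.3 and 21.5 in R9Q and 71.9 and 87.4 in R9Q_unc-16 (log2 fold change 2.93 over WT, SE 0.32, adjusted p = 0.00682; 1.86 over R9Q, adjusted p = 0.0466). With dod-20 it made 2 of 10 irg and dod genes called higher, and 0 were lower (20%, against 4.46% of all genes). dod-17 and dod-24, of the same list, differed between the R9Q_unc-16 libraries, at 1215 and 70.8 CPM and at 2334 and 362, on both sides of their WT levels of 655 and 662 and of 955 and 986. The WT and R9Q_unc-16 libraries overlapped for both genes.

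Heat-inducible chaperones rose in part. Of 7 small heat shock and Hsp70 genes tested, 2 were called higher (28.6%, against 4.46% of all genes), the Hsp70 genes hsp-70 and F44E5.4. hsp-70 (chromosome I, 9320325 to 9322519) stood at 1.37 and 0.932 CPM in WT, 1.61 and 1.29 in R9Q and 95.8 and 42.5 in R9Q_unc-16. R9Q lay with WT, and the log2 fold change was 5.88 over WT (SE 0.65, adjusted p = 0.00749) and 5.56 over R9Q (adjusted p = 0.0249). F44E5.4 had 0 and 1 counts in WT and 622 and 340 in R9Q_unc-16, an 896-fold ratio (95% counting interval 160 to 35410); it has a near-identical copy in F44E5.5, and reads of the 2 genes may have been split. The small heat shock gene hsp-16.41 stood at 1.37 and 3.42 CPM in WT and 99.4 and 82.2 in R9Q_unc-16 without overlap, but did not pass the test (adjusted p = 0.101). For hsp-12.3, hsp-12.6, hsp-43 and sip-1 the log2 fold changes were between -0.63 and 0.51, with adjusted p of at least 0.409.

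Proteasome subunits that passed the test rose by log2 fold changes of 1.13 to 1.33. Of 19 tested, 5 were called higher and 0 lower (26.3%, against 4.46% of all genes). Both R9Q_unc-16 libraries lay above both WT libraries for 14 and below for 1, beside 24.2% above and 31.9% below over all genes. The median log2 fold change was 1.14, against 0.32 in R9Q. Summed levels of the tested subunits were 2081 and 2032 CPM in WT, 2536 and 2551 in R9Q and 3397 and 5304 in R9Q_unc-16. The strains with a second change in unc-104 lay above WT too, at 3378 and 2575 CPM in R9Q_T102I and 3187 and 5161 in R9Q_G265R. The called subunits, rpn-1, rpn-7, rpn-8, rpt-2 and rpt-6, all belong to the regulatory particle that recognises and unfolds ubiquitinated proteins. rpn-1 stood at 196 and 199 CPM in WT, 236 and 244 in R9Q and 520.1 and 471 in R9Q_unc-16 (log2 fold change 1.33, SE 0.20, adjusted p = 0.0201; 1.05 over R9Q, adjusted p = 0.0646). Without R9Q_unc-16 replicate 1 edgeR called 12 subunits, without replicate 2 it called 1, and without either WT library it called 0. rpt-2 and rpt-6 overlap fos-1 and glrx-5 on the opposite strand, and whether counting used strand is not given in the sources used here.

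cdc-48.1, the AAA ATPase that extracts ubiquitinated proteins from the endoplasmic reticulum, stood at 416 and 428 CPM in WT and 983 and 829 in R9Q_unc-16 (log2 fold change 1.10, SE 0.21, adjusted p = 0.0329). It was the 1 gene called among 8 tested for folding in the endoplasmic reticulum (12.5%, against 4.46% of all genes). Of these, 7 lay above WT in both libraries, beside 24.2% over all genes. In protein breakdown by other routes, the lysosomal protease gene asp-4 stood at 250 and 228 CPM in WT and 563 and 663 in R9Q_unc-16 (log2 fold change 1.36, SE 0.21, adjusted p = 0.0206). For asp-4, R9Q stood at 274 and 270 CPM, R9Q_T102I at 736 and 604 and R9Q_G265R at 518 and 586. bec-1, the worm Beclin of autophagy, stood at 27.7 and 29.5 CPM in WT and 99.96 and 72.0 in R9Q_unc-16 (log2 fold change 1.59, SE 0.27, adjusted p = 0.0242). cpr-3, a cysteine protease gene, went the other way, from 402 and 406 CPM to 132 and 118, with R9Q at 184 in both libraries.

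Glutathione transferases, which conjugate glutathione to toxic compounds, had the most genes called lower among the lists examined. Of 42 tested, 10 were called lower and 0 higher (23.8%, against 4.46% of all genes). Both R9Q_unc-16 libraries lay below both WT libraries for 36 and above for 0, beside 31.9% below and 24.2% above over all genes. The median log2 fold change was -1.38 in R9Q_unc-16 and 0.27 in R9Q, both against the same WT libraries. gst-4 (chromosome IV, 10142225 to 10143099), the usual reporter of the oxidative stress factor SKN-1, stood at 268 and 247 CPM in WT, 574 and 572 in R9Q and 33.3 and 26.1 in R9Q_unc-16. The log2 fold change was -3.12 against WT (SE 0.45, adjusted p = 0.0168) and -4.27 against R9Q (adjusted p = 0.0248), so the 3 strains did not overlap and WT lay between the others. gst-4 overlaps dhs-12 on the same strand, and reads in the shared stretch cannot be told apart.

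A run of 5 such genes, gst-15, gst-14, gst-12, gst-16 and gst-19, lies between 13611770 and 13627145 on chromosome II, and all were called lower. gst-14 stood at 119.2 and 113.9 CPM in WT, 176 and 178 in R9Q and 17.4 and 16.2 in R9Q_unc-16 (log2 fold change -2.80, SE 0.32, adjusted p = 0.00815; -3.40 against R9Q, adjusted p = 0.0144). gst-12 stood at 283 and 276 CPM in WT, 546 and 550.3 in R9Q and 65.1 and 40.4 in R9Q_unc-16. In these genes, as in gst-4, R9Q lay above WT and R9Q_unc-16 below it. The difference of R9Q from WT did not pass edgeR's test for gst-4 and gst-14 (adjusted p = 0.502 and 0.724). That test used a spread shared by all 10 libraries, with a median biological coefficient of variation of 0.363 against 0.0802 in WT and R9Q. It therefore says little about the difference between these 2 strains. gst-25, gst-30, gst-22 and gsto-1 were the other members called. gsto-1, of the omega class, had another order, at 228 and 215 CPM in WT, 28.8 and 22.8 in R9Q and 16.6 and 47.4 in R9Q_unc-16, so that R9Q and R9Q_unc-16 both lay below WT. Without R9Q_unc-16 replicate 1 edgeR called 11 members, without replicate 2 it called 16, and without either WT library it called 0. gcs-1, the glutathione synthesis enzyme that SKN-1 also controls, overlapped between the groups at 498 and 499 CPM in WT and 521 and 231 in R9Q_unc-16.

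Of the superoxide dismutases, sod-5 was called higher, at 0.76 and 1.09 CPM in WT, 8.22 and 7.61 in R9Q and 19.8 and 23.03 in R9Q_unc-16 (log2 fold change 4.51, SE 0.44, adjusted p = 0.00531). Cytochrome P450 genes, which oxidise foreign compounds and lipids, had 5 members called higher and 5 lower of 61 tested (16.4%, against 4.46% of all genes). The ones higher were cyp-42A1 and 4 of the cyp-13A group, among them cyp-13A10 at 401 and 119.4 CPM against 27.8 and 32.5 in WT. cyp-35B2 went furthest down, with 86 and 100 counts in WT and 2 and 1 in R9Q_unc-16, a 66.6-fold ratio (95% counting interval 22.4 to 326). cyp-13B1 stood at 220.1 and 202 CPM in WT, 13.2 and 16.4 in R9Q and 26.4 and 29.5 in R9Q_unc-16, below WT in both strains. Of 50 glucuronosyltransferase genes, which attach sugars to such compounds, 3 were lower and 0 higher (6%, near the 4.46% of all genes). ugt-37 led with 100.2 and 89.2 CPM in WT and 6.76 and 7.23 in R9Q_unc-16 (log2 fold change -3.76, SE 0.40, adjusted p = 0.00682), and it overlaps ugt-40 on the same strand.

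**Figure D4:**
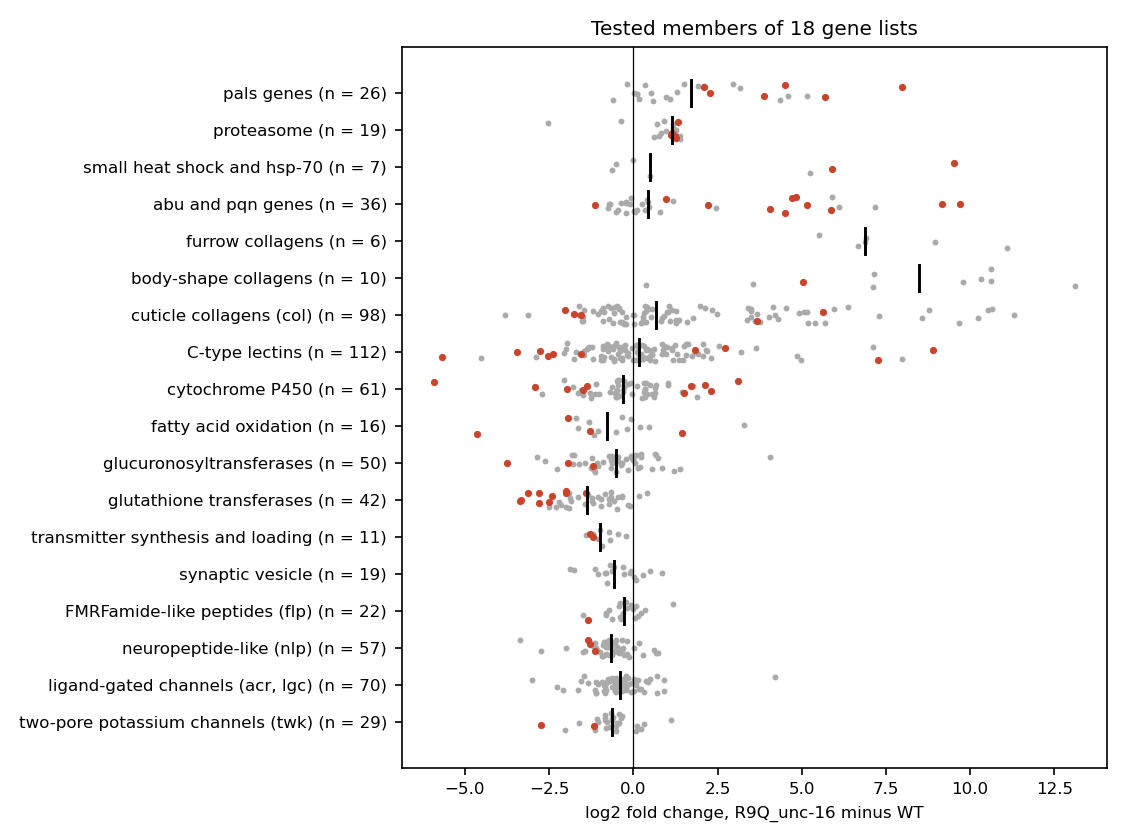
Log2 fold changes of R9Q_unc-16 over WT for the tested members of 18 gene lists, with called genes in red, other genes in grey and the list median as a black bar. Members with 0 counts in a group are drawn at their fitted value, which is no bound. All called pals, proteasome and heat-inducible genes lie right of 0 and all called glutathione transferase, transmitter and potassium channel genes left of it.

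Genes of fatty acid oxidation lay below WT in both libraries for 9 of 16 tested and above for 2, with 3 called lower and 1 higher and a median log2 fold change of -0.79 (-0.70 in R9Q). Over all genes 31.9% lay below, 24.2% lay above and 4.46% were called. cpt-3 (chromosome III, 2082819 to 2088314), a carnitine palmitoyltransferase that carries fatty acids into mitochondria, stood at 51.8 and 60.9 CPM in WT, 3.52 and 3.48 in R9Q and 2.46 and 2.01 in R9Q_unc-16. The log2 fold change was -4.65 against WT (SE 0.29, adjusted p = 0.00168) and -0.65 against R9Q (adjusted p = 0.245). acdh-7, an acyl-CoA dehydrogenase, stood at 786 and 774 CPM in WT, 211 and 215 in R9Q and 283 and 354 in R9Q_unc-16. Both genes were thus low in R9Q and R9Q_unc-16. In R9Q_T102I cpt-3 stood at 41.9 and 42.8 CPM and acdh-7 at 838 and 777. In R9Q_G265R they stood at 4.16 and 4.36 and at 313 and 458. maoc-1, an enzyme of peroxisomal oxidation, was lower at 130.2 and 187 CPM against 611 and 619 in WT, with R9Q between them at 380 and 395; it overlaps E04F6.6 on the opposite strand. hacd-1, a hydroxyacyl-CoA dehydrogenase, was the 1 called higher, at 213 and 183 CPM against 72.8 and 74.1.

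Other membrane and metabolic genes among the widest gaps were all lower. nhx-6, a sodium-proton exchanger, had 334 and 270 counts in WT and 1 in each R9Q_unc-16 library, a 324-fold ratio (95% counting interval 89.4 to 2685). best-2, a bestrophin chloride channel gene, had 106 and 109 counts in WT and 0 and 2 in R9Q_unc-16, a 115.5-fold ratio (95% counting interval 31.6 to 959.6). argk-1, an arginine kinase that buffers ATP, stood at 39.1 and 33.7 CPM in WT, 3.67 and 2.45 in R9Q and 2.61 and 2.28 in R9Q_unc-16. The claudin-like gene clc-12, the acyltransferase gene oac-6 and the nematode-specific peptide gene nspg-7.2 had log2 fold changes of -3.69, -3.64 and -3.26. These genes lay below WT in R9Q too, at 6.46 and 6.57 CPM for clc-12, 45.2 and 44.9 for oac-6 and 38.8 and 33.4 for nspg-7.2. F56A4.3, named by its sequence and chosen after its values were seen, had 962 and 927 counts in WT and 0 in both R9Q_unc-16 libraries, so it was at least 337-fold lower; R9Q stood at 0.147 and 0.258 CPM.

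In the JNK and p38 kinase pathways, which UNC-16 scaffolds in part, 1 of 16 genes tested was called (6.25%, near the 4.46% of all genes). kreg-1 (WBGene00018725, chromosome X, 8709764 to 8710015), a gene named for its control by the JNK-like kinase KGB-1, stood at 89.5 and 82.0 CPM in WT, 9.98 and 12.4 in R9Q and 4.15 and 3.88 in R9Q_unc-16. Its log2 fold change was -4.41 against WT (SE 0.47, adjusted p = 0.00682) and -1.47 against R9Q (adjusted p = 0.137). kgb-1 itself stood at 426 in both WT libraries and at 267 and 218 CPM in R9Q_unc-16 without overlap, and did not pass the test (log2 fold change -0.81, adjusted p = 0.0588). fos-1, a transcription factor gene, lay above WT at 17.04 and 8.57 CPM against 3.19 and 2.49 (adjusted p = 0.058). jip-1, which codes for another JNK scaffold, stood at 48.7 and 47.1 CPM in WT and 45.5 and 35.5 in R9Q_unc-16 (adjusted p = 0.682).

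Genes of the transport machinery were not called. Of 11 kinesin genes and 20 genes of adaptors, dynein and their regulators tested, edgeR called 0, with median log2 fold changes of 0.53 and -0.05. An unadjusted p under 0.05 was found for 1 and 2 of them, and DESeq2 over the 10 libraries called 1 in each list. Both R9Q_unc-16 libraries lay above both WT libraries for 6 kinesin and 4 adaptor and dynein genes, and below for 0 and 3. Over all genes 24.2% lay above and 31.9% below. unc-116, the kinesin-1 heavy chain that UNC-16 binds, stood at 682 and 711 CPM in WT and 1225 and 783 in R9Q_unc-16 (log2 fold change 0.53, adjusted p = 0.26). arl-8, a small GTPase that activates UNC-104, overlapped between the groups at 196 and 199 CPM in WT and 143 and 295 in R9Q_unc-16.

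Several neuronal lists lay below WT more often than above it, and others did not. Both R9Q_unc-16 libraries lay below both WT libraries for 10 of 11 genes of transmitter synthesis and loading, 30 of 57 neuropeptide-like (nlp) genes, 39 of 70 ligand-gated channel genes and 22 of 29 two-pore potassium channel genes. They lay above WT for 0, 3, 2 and 0, beside 31.9% below and 24.2% above over all genes. Median log2 fold changes were -0.98, -0.66, -0.41 and -0.65. In R9Q the medians of the first 2 lists were -0.20 and 0.46. Calls by edgeR were few, with 2, 3, 0 and 2 lower and 0 higher. These were 18.2, 5.26, 0 and 6.9% of the lists, against 4.46% of all genes. Of the ligand-gated channel genes 17 had an unadjusted p under 0.05, and DESeq2 called 8. Genes of intraflagellar transport, the traffic that builds sensory cilia, lay above WT for 13 of 32 and below for 4, with a median log2 fold change of 0.27. Those of dense-core vesicles and peptide processing lay above for 2 of 10 and below for 2, with a median of 0.02. edgeR called 0 in both of these lists, 5 and 1 had an unadjusted p under 0.05, and DESeq2 called 3 and 1. FMRFamide-like peptide (flp) genes lay below WT for 9 of 22 and above for 1, insulin-like peptide genes below for 11 of 25 and above for 3, and touch receptor (mec) genes below for 8 of 12 and above for 0.

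ace-3, an acetylcholinesterase gene, stood at 261 and 234 CPM in WT, 163 and 156 in R9Q and 101 and 100.4 in R9Q_unc-16 (log2 fold change -1.30, SE 0.17, adjusted p = 0.0123). cho-1, the choline transporter of cholinergic terminals, stood at 188 and 199 CPM in WT and 97.2 and 70.3 in R9Q_unc-16 (log2 fold change -1.21, SE 0.26, adjusted p = 0.0431). Both belong to acetylcholine turnover, whereas unc-17 and cha-1, which load and make the transmitter, did not pass the test at log2 fold changes of -0.46 and -0.74. nlp-58 was lower than WT and R9Q alike, at 24.6 and 42.9 CPM against 82.6 and 83.0 and against 123 and 124 (adjusted p = 0.0401 and 0.038). Among potassium channels twk-45 stood at 19.6 and 19.9 CPM in WT and 3.23 and 2.68 in R9Q_unc-16 (log2 fold change -2.74, SE 0.45, adjusted p = 0.0227).

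Of 19 synaptic vesicle and active zone genes, some of them cargo of UNC-104, edgeR called 0, while 5 had an unadjusted p under 0.05 and DESeq2 called 1. Their median log2 fold change was -0.58, and -0.06 in R9Q. snb-1, which codes for synaptobrevin, stood at 943 and 916 CPM in WT and 456 and 689 in R9Q_unc-16 (log2 fold change -0.70, adjusted p = 0.14). sng-1, synaptogyrin, stood at 137 and 132 CPM in WT and 70.3 and 85.7 in R9Q_unc-16 (log2 fold change -0.79, adjusted p = 0.0845). Neither gene overlapped between the groups. The summed level of the 4 neuronal markers tested was 1152 and 1119 CPM in WT and 625 and 829.5 in R9Q_unc-16, and their part in the lower neuronal lists was not tested. The 2 body wall muscle markers tested, by contrast, summed to 4865 and 4834 CPM in WT and lay on both sides of that in R9Q_unc-16, at 7602 and 3291.

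Some genes of the pharyngeal cuticle rose. Of 36 abu and pqn genes, which code for glutamine- and asparagine-rich proteins, many of them in the cuticle that lines the pharynx, 10 were called higher and 1 lower. These calls made up 30.6% of the list, against 4.46% of all genes. Both R9Q_unc-16 libraries lay above WT for 15 and below for 7, 14 overlapped, and the median log2 fold change was 0.42. Over all genes 24.2% lay above and 31.9% below. abu-15 and abu-1 had 0 counts in both WT libraries and were at least 33.3-fold and 22.9-fold higher, with 98 and 117 and 40 and 112 counts in R9Q_unc-16. abu-10 stood at 1.22 and 0.777 CPM in WT, 2.94 and 4.51 in R9Q and 27.03 and 30.5 in R9Q_unc-16 (log2 fold change 4.83, SE 0.46, adjusted p = 0.0046; 2.94 over R9Q, adjusted p = 0.0349). idpc-1 and idpc-7, of intrinsically disordered pharyngeal cuticle proteins, were higher too. idpc-7 had 0 and 2 counts in WT and 82 and 209 in R9Q_unc-16, a 136-fold ratio (95% counting interval 37.2 to 1124), and idpc-1 overlaps sbp-1 on the opposite strand. Members of these families share repeats, so their counts are uncertain between copies.

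The collagens of the body cuticle rested on 1 library. The 6 furrow collagens, which shape the annular grooves and are made as the animal molts, had median levels of 1.37 and 0.855 CPM in WT, 1.91 and 1.68 in R9Q, and 6.30 and 421 in R9Q_unc-16. The medians were also raised in R9Q_T102I, at 108.8 and 77.05 CPM, and in 1 library of R9Q_G265R, at 0.4 and 96.3. Both R9Q_unc-16 libraries lay above WT for 5 of the 6 (24.2% over all genes), yet edgeR called 0, with a median log2 fold change of 6.89. An unadjusted p under 0.05 was found for 5, and DESeq2 called 5. dpy-7 stood at 0.76 and 0.155 CPM in WT and at 2.30 and 476 in R9Q_unc-16 (adjusted p = 0.124). dpy-13, of the body-shape collagens, stood at 1.22 and 1.09 CPM in WT and at 25.95 and 2038 in R9Q_unc-16 (adjusted p = 0.0916). In both genes replicate 1 lay far nearer to WT than replicate 2. Of 10 body-shape collagens 9 lay above WT in both libraries and 0 below, beside 24.2% above and 31.9% below over all genes. Their summed level was 7.30 and 8.39 CPM in WT and 143 and 6892 in R9Q_unc-16. It was 1554 and 1017 CPM in R9Q_T102I and 7.53 and 1369 in R9Q_G265R. The 1 called (10%, against 4.46% of all genes) was dpy-14, at 19.5 and 46.9 CPM against 1.06 and 0.932 in WT, and R9Q lay at 17.5 and 17.4 (log2 fold change 5.03, SE 0.58, adjusted p = 0.00826).

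Of 27 genes of molting and the apical matrix 18 lay above WT in both libraries and 3 below, with a median level of 11.7 and 10.1 CPM in WT and 22.6 and 82.1 in R9Q_unc-16. Over all genes 24.2% lay above, 31.9% lay below and 4.46% were called. pan-1, a leucine-rich repeat protein gene needed for molting, was the 1 called, at 67.0 and 64.8 CPM in WT, 45.5 and 43.1 in R9Q and 156 and 173 in R9Q_unc-16 (log2 fold change 1.32, SE 0.25, adjusted p = 0.0357). It was close to equal in the R9Q_unc-16 libraries, while noah-2, an apical matrix protein gene, stood at 42.99 and 827 CPM against 0.608 and 0.932 in WT (adjusted p = 0.0577). Among 98 col genes, 2 were called higher and 3 lower (5.1%, near the 4.46% of all genes). col-165 stood at 0.456 and 1.24 CPM in WT, 22.3 and 25.3 in R9Q and 11.4 and 10.6 in R9Q_unc-16, and col-147 at 3282 and 3184, 1165 and 1151, and 707 and 886. Both of these moved the same way in R9Q and R9Q_unc-16. In R9Q_T102I and R9Q_G265R col-165 stayed at the WT level, at 0.472 to 1.18 CPM, and col-147 stood at 1233 to 2351.

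The 12 protein-coding genes of the mitochondrial genome lay below WT in both libraries, with a summed level of 46400 and 47250 CPM in WT, 32180 and 33250 in R9Q, and 15820 and 182 in R9Q_unc-16. The sum was 241.8 and 48500 CPM in R9Q_T102I and 58660 and 221.8 in R9Q_G265R, so 1 library of each was also very low. Of the 12 genes edgeR called 0, 1 had an unadjusted p under 0.05 and DESeq2 called 1. With 1 member at 0 counts in a group set to its bound the median log2 fold change was -3.04 (-3.31 as fitted). Among 28 nuclear genes of the respiratory chain edgeR called 0, DESeq2 called 0 and 0 had an unadjusted p under 0.05, and 7 lay below and 4 above WT.

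Other called genes came from lists with 1 or 2 calls. lam-3, a laminin alpha chain of the basement membrane, stood at 7.45 and 7.30 CPM in WT, 5.14 and 5.93 in R9Q and 54.5 and 43.1 in R9Q_unc-16 (log2 fold change 2.72, SE 0.33, adjusted p = 0.00898; 3.14 over R9Q, adjusted p = 0.0246). far-3 and far-4, neighbouring fatty acid and retinol binding protein genes on chromosome V, were both higher than WT and R9Q. far-3 stood at 30.6 and 28.4 CPM in WT and 141 and 93.5 in R9Q_unc-16. In R9Q_T102I and R9Q_G265R it was also high, at 549 and 432 CPM and at 193 and 93.97. far-4 stood at 0.912 and 0.621 CPM in WT, 0.881 and 1.81 in R9Q and 15.8 and 12.3 in R9Q_unc-16 (log2 fold change 4.16, SE 0.56, adjusted p = 0.0127). Its level was 4.72 and 3.27 CPM in R9Q_T102I and 10.25 and 6.21 in R9Q_G265R. In these genes R9Q lay with WT or below it. him-5, which promotes crossovers on the X chromosome, was lower at 24.9 and 21.2 CPM against a mean of 99.7 ± 0.428 (SD, n = 2) in WT, with R9Q at 19.1 and 20.6. zip-8, a bZIP transcription factor gene, was higher in both strains, at 51.7 and 52.04 CPM in WT, 123 and 127 in R9Q and 105 and 90.5 in R9Q_unc-16.

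Set beside R9Q, the called genes thus fell into several orders. Among WT, R9Q and R9Q_unc-16, clec-60, clec-61, tbb-6, pals-14 and sod-5 were intermediate in R9Q and highest in R9Q_unc-16. hsp-70, lam-3, far-4 and abu-11 were near WT in R9Q and high in R9Q_unc-16, and clec-68 was near WT in R9Q and low in R9Q_unc-16. spp-9, spp-12, cpt-3, argk-1 and him-5 were low in both, and the adjusted p for R9Q_unc-16 against R9Q was at least 0.245 for each of these 5. gst-4, gst-12, gst-14 and gst-25 lay above WT in R9Q and below it in R9Q_unc-16, and the adjusted p between these strains was 0.0144 to 0.0392. The rise from WT to R9Q did not pass edgeR's test for gst-4, gst-14 and gst-25 (adjusted p = 0.502, 0.724 and 0.529), which used the wider spread of all 10 libraries. The R9Q and R9Q_unc-16 comparisons share the WT libraries, and these orders were chosen after the values were seen. R9Q_T102I and R9Q_G265R did not enter them. clec-68 was low there too, at 7.71 and 7.39 CPM in R9Q_T102I and 55.7 and 24.8 in R9Q_G265R. clec-60 stood at 54.9 and 58.3 CPM in R9Q_T102I and at 223 and 647 in R9Q_G265R, where it overlapped R9Q_unc-16. clec-61, tbb-6, pals-14 and sod-5 stayed below R9Q_unc-16 in both strains. gst-14 and gst-25 also lay below WT in both of these strains. gst-4 lay below WT in R9Q_T102I, at 178 and 195 CPM, and on both sides of it in R9Q_G265R, at 485 and 174. hsp-70 and lam-3 stayed nearer to WT in these strains, at 0.63 to 3.68 and 9.29 to 13.8 CPM.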

How the data were processed

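Total RNA of whole animals was made into libraries with a KAPA RNA HyperPrep kit, per the labels' protocols. The authors deposited raw counts of reads for each transcript. Trim Galore 0.4.4, STAR 2.5.4b, HTSeq 0.9.1 and the ce11 build are named in the submitters' processing notes, and the sources used here do not give the strand setting of counting. Every deposited table held 61451 transcripts and 5 summary entries, which were left out. Reads on more than 1 transcript, 57.7 to 61.8% of aligned reads per library, were not counted, so genes with several transcripts were measured in part. Counts were summed over transcripts to 46907 genes with the Ensembl 115 annotation (56781 transcripts matched by identifier, 4581 by sequence name, and 89 kept under their own name).

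All 10 libraries (6239272 to 7160785 assigned counts) entered 1 edgeR 4.0.16 model (R 4.3.3) that had 1 coefficient for each strain, TMM factors (0.899 to 1.095) and filterByExpr at a minimum count of 10, which left 12267 genes. glmQLFTest with 5 residual degrees of freedom and Benjamini-Hochberg adjustment over these genes gave the calls at 0.05. SEs were worked back from the test. The limit that 0 counts allow was set at 3 per library. Ratios for group totals of 1 to 3 counts have exact 95% intervals, and both cover counting error only. DESeq2 1.42.0 and limma 3.58.1 served for alternatives. The fit was tested on simulated data.

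Members, gene lists and tests were chosen with earlier results of these data known. Named genes were unc-104 and unc-16, the 12 called genes in each direction with the widest gap between the libraries of the 2 strains (a mean of at least 50 counts over the 4 libraries and a symbol of letters and a number, which leaves out genes known by a sequence name only), and up to 4 called members of each of 75 lists, beside members given as values. Scalings, filters, tools, a replicate block, the set of libraries with few mitochondrial reads and the removal of each library were tried as alternatives.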

Additional observations from a re-analysis of the deposited data

How the results depend on the processing

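Of 547 genes called, 278 higher and 269 lower, counts stayed within 1.5 times under scaling by DESeq2's or by upper quartile factors, with mitochondrial and ribosomal RNA genes left out of library sizes, a filter of 5 CPM in 2 libraries, and genes with 1 transcript (507 to 729 in all). Without a count filter 1672 were called (1038 and 634; 1520 without overlap). The DESeq2 Wald test called 1659 (1059 and 600; 1624), and voom with strain weights 585 (420 and 165). On the 4 libraries edgeR called 0 (0 and 0; 2248 at an unadjusted p under 0.05), and DESeq2, chosen after seeing the data, called 855 (572 and 283; 846). A term for libraries with a mitochondrial share under 0.1% gave 2509 (1139 and 1370; 2185), and leaving those libraries out gave 7040 (3424 and 3616), with 1 R9Q_unc-16 library left, assumed to vary like the other strains. The cause of these shifts was not tested. Leaving out each library in turn gave 7 to 1448 calls, 2 to 641 higher and 5 to 807 lower, and 7 to 1448 without overlap. No called gene changed direction in a fit that tested it, which the lack of overlap between the reused libraries made almost certain beforehand.

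Replicate numbers are shared between strains, but the labels do not say that they mark a common culture or day, and deviations of same-numbered libraries correlated at -0.0259 between R9Q_unc-16 and WT and at -0.638 to 0.606 over all pairs of strains. The numbers were therefore not taken as pairs. With a replicate block 218 genes were called (120 and 98; 218 without overlap). Of the 98 named genes, 35 lost their call under the block, 14 under DESeq2 on the 4 libraries, 92 without WT replicate 1 and 91 without WT replicate 2. Every value is limited by groups of 2 libraries and, in R9Q_unc-16, by a replicate 2 with almost no mitochondrial reads.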

Other observations

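Some gene groups outside the main account also lay mostly on one side. Of 168 nuclear hormone receptor genes tested, which code for ligand-controlled transcription factors, both R9Q_unc-16 libraries lay below both WT libraries for 90 and above for 12, with 4 called lower and nhr-2 called higher. Chemoreceptor genes, read mainly in sensory neurons, lay below WT for 210 of 493 and above for 50, with a median log2 fold change of -0.53 and 1 call in each direction. Short secreted peptides of the fip and fipr families lay below WT for 16 of 18, with a median of -1.70 and fipr-4 called, at a mean of 66.9 CPM ± 4.09 (SD, n = 2) in WT, 61.2 and 62.9 in R9Q and 10.4 and 10.7 in R9Q_unc-16. Transthyretin-related genes lay below WT for 19 of 32 and above for 1, with 1 call in each direction. Over all genes tested these shares were 31.9% below and 24.2% above. Calls were 2.98, 0.406, 5.56 and 6.25% of the lists in the order given, against 4.46% of all genes.

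Hedgehog-related genes, which in worms act mostly in the epidermis, lay above WT in both libraries for 17 of 36 and below for 4. Over all genes 24.2% lay above and 31.9% below. For the hedgehog-related genes edgeR called 0, 17 had an unadjusted p under 0.05 and DESeq2 called 14. Marker sums of other tissues differed between the R9Q_unc-16 libraries, as with 3 pharynx markers at 8533 and 8790 CPM in WT and 11770.0 and 4267 in R9Q_unc-16, and 4 intestine markers at 1380.0 and 1356 against 1588 and 6207. The 2 hypodermis markers tested summed to 2.13 and 3.26 CPM in WT and 7.52 and 486 in R9Q_unc-16. Called genes made up 5.94% of the genes tested on chromosome V and 3.56 to 4.62% on the other chromosomes.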
